A study of Mus musculus with 12 samples.

Results

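The aminoacyl-tRNA synthetases were examined in mouse stem cells that had lost Lin28a, Lin28b or both. The set held 35 genes, picked by symbol, of the 30854 in the deposited gene-level array table. They were 20 cytosolic enzymes, whose symbols carry no 2 suffix, and 15 mitochondrial enzymes, whose symbols end in 2. This set and the gene lists below were chosen with earlier results of these data known. Every one of the 35 symbols matched 1 entry of the table. The 12 samples, 1 Illumina MouseWG-6 BeadChip array each, fell into 4 groups of 3, namely wild type, cells that lost 1 of the genes (Lin28a loss or Lin28b loss) and cells that lost both (double loss). The sample titles give 1 line name to each genotype (wt2, AK01, BK06 and DK05), so line and genotype cannot be told apart. The tissue label reads embryonic stem cells, whereas the series design speaks of induced pluripotent (iPS) controls. All groups shared 1 medium, with serum and Lif, the cytokine that keeps mouse stem cells undifferentiated. How the Lin28 genes were disrupted is not given in the sources used here. Chip 1 carried wild type and Lin28a loss, and chip 2 carried Lin28b loss and double loss. Chip and genotype thus cannot be told apart when Lin28b loss or double loss is set against wild type. No label says that the 3 replicates were separate cultures. If they were not, p-values measure only technical spread.

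Aminoacyl-tRNA synthetases join each amino acid to its transfer RNA, the step that feeds the ribosome. Cytosolic and mitochondrial ribosomes are served by mostly separate sets of nuclear genes, and several cytosolic enzymes sit together in a multisynthetase complex. When charging fails, uncharged tRNA activates the kinase GCN2 (Eif2ak4), which phosphorylates eIF2, and the transcription factor ATF4 is then translated and raises genes of amino acid supply, many cytosolic synthetases among them. Lin28a and Lin28b are RNA-binding proteins of early embryonic cells that block maturation of let-7 microRNAs and bind many messenger RNAs.

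ATF4 with a C/EBP partner binds elements with the core TGATGNAA, so the RefSeq promoters of the synthetases (GRCm38.p6, 250 bases before to 50 after the start) were searched for TGATGNAA on both strands. A promoter was found for 26 of the 35 genes, and 5 of the 26 held the core (19.2%), against 4.51% of 27025 genes. All 5 were among the 8 promoters of cytosolic genes commonly reported as ATF4-responsive (62.5%). Eprs, Mars and Sars of that group did not hold it, and no promoter was found for Cars, Lars, Nars, Vars and Wars. The core was found in 0 of 5 other cytosolic and 0 of 13 mitochondrial promoters. In Aars, Gars and Tars, the cytosolic genes that rose in Lin28a loss below, the core lay upstream of the start. Their rises were not called when the arrays were scaled to a common median. These stretches are shown, 5′ to 3′ on the gene's strand, with the reverse complement of the core in capitals and up to 30 bases on each side.
Aars (chr8:111033700-111033767, plus strand): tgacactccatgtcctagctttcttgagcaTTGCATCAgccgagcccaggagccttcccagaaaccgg
Gars (chr6:55037941-55038000, plus strand): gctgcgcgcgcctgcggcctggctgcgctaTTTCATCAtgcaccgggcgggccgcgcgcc
Tars (chr15:11399659-11399703, minus strand): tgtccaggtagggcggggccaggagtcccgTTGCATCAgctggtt
Iars and Yars held the core only in the first bases after the start, and Aars held a further copy there. A match describes letters in a 300-base window and does not show binding.

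Array values are given here as normalized log2 intensity, on which 1 unit is a 2-fold difference. They compare 1 gene between arrays and not 1 gene with another. Lin28a itself was 8.07, 7.97 and 7.86 in wild type, 5.69, 5.71 and 5.57 in Lin28a loss, 6.84, 7.05 and 7.19 in Lin28b loss, and 5.29, 5.55 and 5.6 in double loss, so it was lowest where it was labelled lost. Lin28a was still above background (a detection p under 0.01) on all 12 arrays, and its mean was also lower in Lin28b loss (7.03) than in wild type (7.97). Lin28b was above background on 0 of 12 arrays, so its loss could not be checked. The mean raw signal of an array ran from 325.4 to 596.7, and the 3 brightest arrays were wild type replicate 1, Lin28a loss replicate 3 and double loss replicate 1. All 10 pluripotency markers were above background on all arrays of all groups, but 3 of them fell in Lin28a loss, Zfp42 (-2.1 ± 0.11), Utf1 (-0.67 ± 0.12) and Sox2 (-0.63 ± 0.14), and Zfp42 also fell in Lin28b loss (-1.7 ± 0.11). Fgf4 rose in both groups on chip 2 and Esrrb in double loss, and the summed log2 level of the 10 stayed between 15.51 and 15.82 on every array. Of 10 fibroblast markers 0 or 1 was above background in any group, and their summed level ran from 8.41 to 8.45 in wild type, 8.9 to 9.08 with Lin28a lost, 8.29 to 8.36 with Lin28b lost and 8.46 to 8.55 with both lost. Of 8 trophoblast markers, 6 were above background on all wild-type arrays, 4 on all Lin28a-loss arrays, 5 on all Lin28b-loss arrays and 3 on all double-loss arrays. Their summed log2 level ran from 10.96 to 11.13, 10.1 to 10.3, 10.34 to 10.47 and 9.72 to 9.86 in the same order, with Elf5 at background on every array. The summed level of 8 primitive endoderm markers was lower in wild type (9.4 to 9.65) than in Lin28a loss (10.57 to 10.67), Lin28b loss (10.58 to 10.6) and double loss (10.03 to 10.16), while 2 of the 8 were above background in every group and Gata4, Sox17, Foxa2 and Afp were at background throughout. The part of these marker differences in the results below was not tested. In such bulk RNA, fewer cells of a type and less RNA per cell cannot be told apart.

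Of the 35 synthetases, 27 were above background on all 3 arrays of at least 1 group and were tested (17 cytosolic and 10 mitochondrial), within a limma fit of all 9920 such genes. An adjusted p under 0.05 is called a rise or a fall. In Lin28a loss against wild type, 7 of the 27 changed (6 rose, 1 fell), which is 25.9%, below the 36.7% of all genes that changed (18.3% rose and 18.4% fell). In Lin28b loss against wild type, 16 of the 27 changed (5 rose, 11 fell), which is 59.3%, against 36.1% of all genes. Falls made up 40.7% of the tested synthetases there and 17.2% of all genes, and rises 18.5% and 18.9%. In double loss against wild type, 6 changed (2 rose, 4 fell), against 37.1% of all genes (18.0% rose and 19.1% fell). In double loss against Lin28b loss, both on chip 2, 12 changed (6 rose, 6 fell), against 36.6% (16.9% rose and 19.7% fell). The first 3 comparisons share their wild-type arrays, and the Lin28b-loss arrays serve in 2 comparisons, so they are not independent. With the arrays scaled to a common median in place of quantile normalization, the rises and falls were 2 and 0 in Lin28a loss, 0 and 3 in double loss against wild type, and 1 and 2 in double loss against Lin28b loss. In Lin28b loss they were 3 and 8. All-gene shares under that scaling are not given here, so the drop in counts is not shown to be particular to the synthetases. In Lin28a loss Lars2 and Aars2 kept their call under that scaling, and Aars (adjusted p = 0.2), Gars (adjusted p = 0.2), Tars (adjusted p = 0.24), Cars2 (adjusted p = 0.34) and Qars (adjusted p = 0.41) did not.

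**Figure D1:**
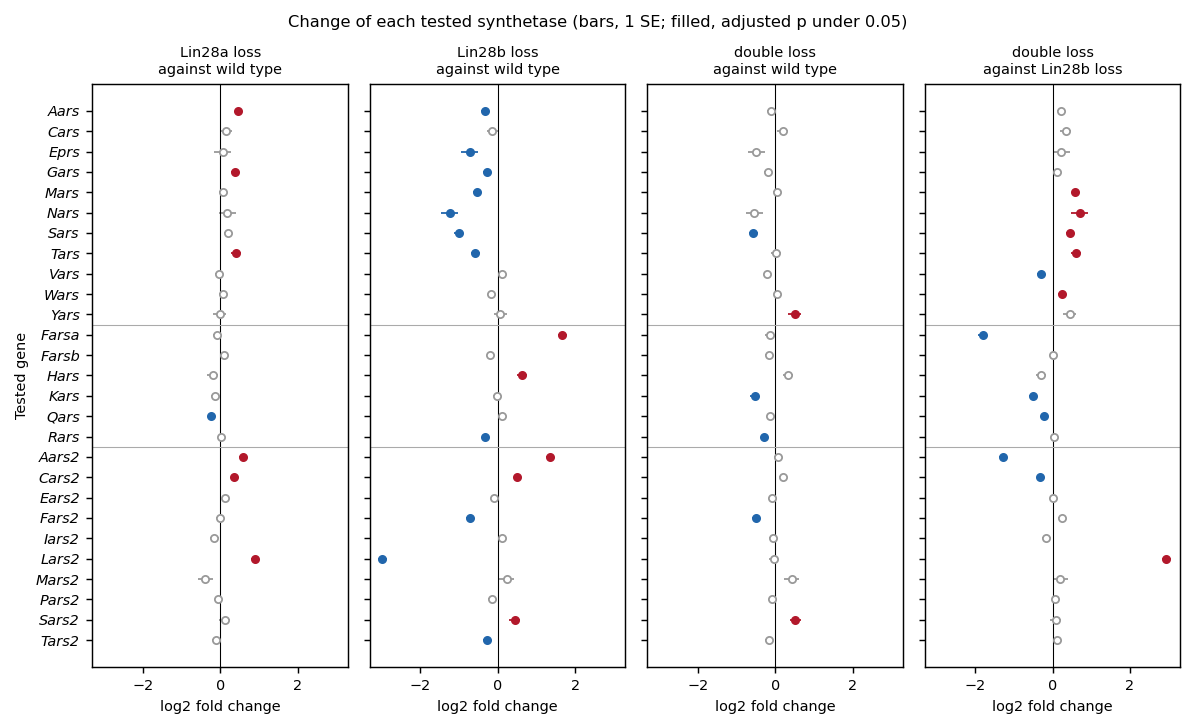
Log2 fold change (x axis, bars 1 SE) of the 27 tested synthetases in 4 comparisons, with red for genes that rose, blue for genes that fell and open circles for the others. Grey lines separate 11 ATF4-responsive cytosolic, 6 other cytosolic and 10 mitochondrial genes; in Lin28b loss 7 of the upper 11 fell and 0 rose.

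The cytosolic synthetases commonly reported as ATF4-responsive were mostly lowest in Lin28b loss and highest in Lin28a loss. Of 13, 11 were tested. In Lin28b loss 7 fell and 0 rose (0 higher at an unadjusted p under 0.05, limma), with a median log2 fold change of -0.34 (all genes 0.00). Falls made up 63.6% of the group there, against 17.2% of all genes. In Lin28a loss 3 rose and 0 fell (median 0.16, all genes -0.03), so 27.3% rose, against 18.3% of all genes. The share called there, also 27.3%, was below the 36.7% of all genes. None of the 3 rises was called under median scaling. In double loss 1 rose and 1 fell against wild type (18.2% called, all genes 37.1%). Against Lin28b loss 5 rose and 1 fell in double loss (54.5% called, all genes 36.6%). The group mean was lowest in Lin28b loss for 9 of the 11, and Lin28b loss was the lowest group for 24.7% of all tested genes. It was highest in Lin28a loss for 8 of the 11, against 29.5% of all tested genes. In 8 of the 11, every Lin28b-loss array was below every wild-type array, as in 26.1% of all genes.

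Aars, the alanine enzyme, was 12.57, 12.33 and 12.41 in wild type, 12.92, 12.87 and 12.94 in Lin28a loss, 12.08, 12.08 and 12.14 in Lin28b loss, and 12.48, 12.28 and 12.19 in double loss. The Lin28a-loss arrays were above, and the Lin28b-loss arrays below, all arrays of the other groups. Aars rose by 0.47 ± 0.1 (SE) in Lin28a loss (1.38-fold, adjusted p = 0.0021) and fell by 0.34 ± 0.1 in Lin28b loss (adjusted p = 0.014). Gars, the glycine enzyme, which from 1 gene supplies both cytosol and mitochondria, was 12.6, 12.78 and 12.91 in wild type, 13.18, 13.24 and 13.02 in Lin28a loss, 12.5, 12.48 and 12.47 in Lin28b loss, and 12.56, 12.59 and 12.6 in double loss. It rose by 0.38 ± 0.1 in Lin28a loss (adjusted p = 0.007) and fell by 0.28 ± 0.1 in Lin28b loss (adjusted p = 0.035). Lin28a-loss and Lin28b-loss arrays lay on opposite sides of wild type with no overlap. Gars was above background on all 3 arrays only in Lin28b loss, through which it entered the fit, and on 2 of 3 in each other group. Its fall was no longer called without wild type replicate 2 or 3, without any one Lin28b-loss array, without double loss replicate 2 (-0.21 to -0.29, adjusted p from 0.051 to 0.14) or in a fit of only the arrays compared (-0.28, adjusted p = 0.055).

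Tars, the threonine enzyme, was 7.37, 7.56 and 7.6 in wild type, 7.73, 7.9 and 8.13 in Lin28a loss, 7.1, 6.94 and 6.76 in Lin28b loss, and 7.48, 7.58 and 7.54 in double loss. It followed the same order as Aars, with double loss back among the wild-type arrays. Tars rose by 0.41 ± 0.12 in Lin28a loss (adjusted p = 0.017), fell by 0.58 ± 0.12 in Lin28b loss (adjusted p = 0.0023), and was higher by 0.6 ± 0.12 in double loss than in Lin28b loss (adjusted p = 0.0018). Its rise in Lin28a loss was 0.24 without the 3 brightest arrays (adjusted p = 0.094), 0.34 without wild type replicate 1 (adjusted p = 0.054), 0.31 without Lin28a loss replicate 3 (adjusted p = 0.058) and 0.4 in a fit of only the arrays compared (adjusted p = 0.052). With median-scaled arrays the step from Lin28b loss to double loss was 0.65 (adjusted p = 0.088).

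The largest falls of this group in Lin28b loss were those of Nars and Sars, the asparagine and serine enzymes. Nars was 11.71, 10.78 and 10.82 in wild type, 11.21, 11.1 and 11.55 in Lin28a loss, 9.88, 9.89 and 9.83 in Lin28b loss, and 10.89, 10.39 and 10.4 in double loss. All 3 Lin28b-loss arrays were below all others, and the highest array of each of the other groups was one of the 3 brightest. Nars fell by 1.24 ± 0.22 in Lin28b loss (2.35-fold, adjusted p = 8.81e-04), and by 0.94 without the 3 brightest arrays (adjusted p = 2.25e-06). It was higher in double loss than in Lin28b loss by 0.7 ± 0.22 (adjusted p = 0.027), a call lost without double loss replicate 1 (0.53, adjusted p = 0.1) and without Lin28b loss replicate 1 (0.71, adjusted p = 0.064), 2 (0.71, adjusted p = 0.064) or 3 (0.68, adjusted p = 0.073), under median scaling (0.89, adjusted p = 0.14) and with no detection filter (0.7, adjusted p = 0.088). Sars was 9.63, 9.54 and 9.46 in wild type, 9.84, 9.84 and 9.55 in Lin28a loss, 8.48, 8.54 and 8.58 in Lin28b loss, and 8.79, 9.09 and 9.07 in double loss. It fell by 1.01 ± 0.11 in Lin28b loss (2.01-fold, adjusted p = 1.66e-05) and by 0.56 ± 0.11 in double loss (adjusted p = 0.0015). Double loss was intermediate, 0.45 ± 0.11 above Lin28b loss (adjusted p = 0.0062; 0.58 under median scaling, adjusted p = 0.054).

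Mars, the methionine enzyme and a member of the multisynthetase complex, was 9.55, 9.4 and 9.3 in wild type, 9.45, 9.58 and 9.45 in Lin28a loss, 8.93, 8.79 and 8.91 in Lin28b loss, and 9.59, 9.42 and 9.39 in double loss. Lin28b loss stood alone below the other 3 groups, which overlapped. Mars fell by 0.54 ± 0.1 in Lin28b loss (adjusted p = 7.48e-04) and was higher by 0.59 ± 0.1 in double loss than in Lin28b loss (adjusted p = 4.02e-04; 0.73 under median scaling, adjusted p = 0.074). Eprs, a single protein that charges both glutamate and proline tRNAs in the same complex, was 10.28, 9.48 and 9.53 in wild type, 9.76, 9.8 and 9.9 in Lin28a loss, 9.02, 9.04 and 9.07 in Lin28b loss, and 9.76, 8.96 and 9.08 in double loss. It fell by 0.72 ± 0.22 in Lin28b loss (adjusted p = 0.021). Its bright wild type replicate 1 and double loss replicate 1 stood apart from the others of their groups. Without wild type replicate 1 the difference was -0.46 (adjusted p = 0.076), and without all 3 brightest arrays it was -0.46 (adjusted p = 3.59e-04). The call was also lost without any one of the Lin28b-loss replicates, at -0.7 (adjusted p = 0.059), -0.72 (adjusted p = 0.056) and -0.73 (adjusted p = 0.052), under median scaling (-0.99, adjusted p = 0.088) and with no detection filter (-0.72, adjusted p = 0.073).

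Of the remaining 4 tested, Wars (tryptophan) rose in double loss against Lin28b loss by 0.23 ± 0.08 (adjusted p = 0.038), from 8.36, 8.38 and 8.41 to 8.56, 8.63 and 8.65. Vars (valine) went the other way there, -0.31 ± 0.09 (adjusted p = 0.013), from 9.97, 9.99 and 10.13 to 9.69, 9.76 and 9.7. Both calls were lost under median scaling, Wars at 0.34 (adjusted p = 0.29) and Vars at -0.15 (adjusted p = 0.67). Wars was also lost without any one Lin28b-loss array or double loss replicate 2 or 3 (0.21 to 0.24, adjusted p from 0.07 to 0.11), and Vars without Lin28b loss replicate 3 (-0.27, adjusted p = 0.06). Yars (tyrosine) was 5.72, 5.39 and 5.33 in wild type and 6.19, 5.79 and 5.97 in double loss, a rise of 0.5 ± 0.17 (adjusted p = 0.038). Yars was above background on all 3 arrays only in double loss, the group where it was highest, and entered the fit through that group. Its call was lost without wild type replicate 2 (0.46, adjusted p = 0.11) or 3 (0.43, adjusted p = 0.12), without double loss replicate 1 (0.4, adjusted p = 0.13) or 3 (0.52, adjusted p = 0.08), under median scaling (0.33, adjusted p = 0.5), with no detection filter (0.5, adjusted p = 0.1) and with the replicate number as a block (0.5, adjusted p = 0.055). Leaving out Lin28a loss replicate 2 or Lin28b loss replicate 1 brought its adjusted p to 0.05. Cars (cysteine) ranged from 5.12 to 5.8 over all arrays and passed in none of the comparisons.

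Iars and Lars, the isoleucine and leucine enzymes of the multisynthetase complex, were bright but missed the detection threshold, at levels above 9 where the lowest signal among detected genes was 4.67 to 4.76. Iars was 10.36, 10.13 and 10.23 in wild type, 10.39, 10.34 and 10.59 in Lin28a loss, 9.64, 9.55 and 9.59 in Lin28b loss, and 10.4, 10.25 and 10.18 in double loss. Its Lin28b-loss arrays, none of which passed detection, were below all others. Lars was 11.55, 11.63 and 11.62 in wild type, 11.7, 11.81 and 11.8 in Lin28a loss, 11.09, 11.05 and 11.09 in Lin28b loss, and 11.36, 11.41 and 11.29 in double loss. In a limma fit with no detection filter, Iars was -0.65 ± 0.08 (adjusted p = 4.62e-04) and Lars -0.52 ± 0.05 (adjusted p = 3.79e-05) in Lin28b loss against wild type. In Lin28a loss the same fit gave Iars 0.2 ± 0.08 (adjusted p = 0.16) and Lars 0.17 ± 0.05 (adjusted p = 0.028). The 2 genes thus had the order of Aars and Tars, Lin28b loss lowest and Lin28a loss highest. A gene read by several probes has 1 detection p in this table, and Iars is read by 4 probes and Lars by 3. A further entry whose name is a synonym of Lars (2310045K21Rik), read by 1 probe, was above background on every array and entered the limma fit. It was 7.75, 7.4 and 7.34 in wild type, 7.27, 7.32 and 7.59 in Lin28a loss, 6.26, 6.33 and 6.0 in Lin28b loss, and 6.83, 6.68 and 6.63 in double loss. It fell by 1.3 ± 0.13 in Lin28b loss (adjusted p = 9.96e-06) and by 0.78 ± 0.13 in double loss (adjusted p = 5.47e-04), while its Lin28a-loss arrays overlapped wild type (-0.1 ± 0.13, adjusted p = 0.58).

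**Figure D2:**
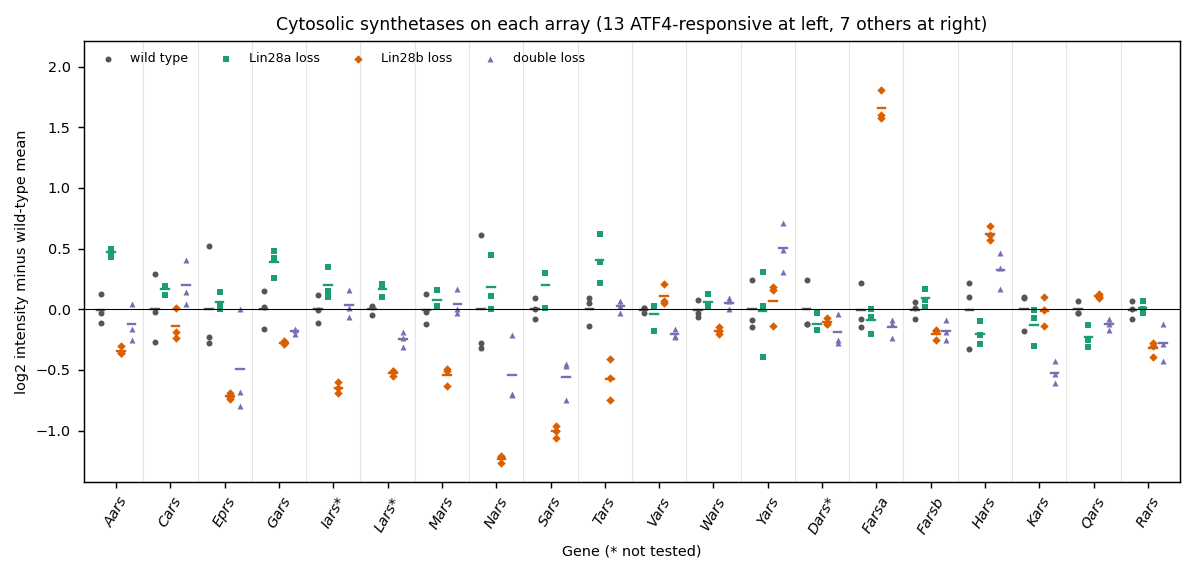
Log2 intensity of the 20 cytosolic synthetases on each array, minus the mean of the wild-type arrays (y axis), with horizontal dashes for group means; asterisks mark genes not tested. At left the Lin28b-loss arrays of Aars, Eprs, Iars, Lars, Mars, Nars, Sars and Tars lie below the wild-type arrays. At right Farsa and Hars, the latter near background, are highest in Lin28b loss.

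The other cytosolic synthetases showed no common direction. Of 7, 6 were tested. In Lin28b loss 2 rose and 1 fell (median 0.04), in Lin28a loss 0 rose and 1 fell (median -0.11), in double loss against wild type 0 rose and 2 fell (median -0.16), and in double loss against Lin28b loss 0 rose and 3 fell (median -0.27). The shares called were 50%, 16.7%, 33.3% and 50% in that order, against 36.1%, 36.7%, 37.1% and 36.6% of all genes. All-gene medians in these comparisons lay between -0.03 and 0.00.

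Farsa encodes the catalytic subunit of the phenylalanine enzyme. It was 6.51, 6.44 and 6.81 in wild type, 6.53, 6.39 and 6.59 in Lin28a loss, 8.19, 8.4 and 8.17 in Lin28b loss, and 6.47, 6.35 and 6.5 in double loss. The 3 Lin28b-loss arrays stood apart, and the other 9 overlapped. Farsa rose by 1.67 ± 0.11 in Lin28b loss (3.17-fold, adjusted p = 2.51e-07), and it was 3.51-fold lower in double loss than in Lin28b loss on the same chip (-1.81 ± 0.11, adjusted p = 1.73e-07). Farsb, the other subunit of the same enzyme, did not pass in any comparison: it was 12.75, 12.61 and 12.7 in wild type and 12.52, 12.44 and 12.51 in Lin28b loss, a difference of -0.19 ± 0.08 (adjusted p = 0.09).

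Hars, the histidine enzyme, was 5.06, 5.61 and 5.49 in wild type, 5.29, 5.18 and 5.1 in Lin28a loss, 6, 5.96 and 6.08 in Lin28b loss, and 5.56, 5.85 and 5.73 in double loss, and it rose in Lin28b loss by 0.62 ± 0.13 (adjusted p = 0.0028). Hars was above background on 2 of 3 wild-type arrays. Its raw signals overlapped, at 89.3, 82.9 and 86.6 in wild type and 81.0, 83.4 and 92.2 in Lin28b loss. The estimated background was 52.74 to 61.18 in wild type and 43.81 to 46.26 in Lin28b loss. The rise thus appeared only after background correction and normalization, near the floor. Kars, the lysine enzyme, which supplies cytosol and mitochondria from 1 gene and belongs to the complex, was 10.41, 10.68 and 10.69 in wild type, 10.52, 10.58 and 10.29 in Lin28a loss, 10.45, 10.58 and 10.69 in Lin28b loss, and 9.98, 10.16 and 10.06 in double loss. Only the double-loss arrays were apart, and Kars fell there by 0.53 ± 0.11 against wild type (adjusted p = 0.0025) and by 0.51 ± 0.11 against Lin28b loss (adjusted p = 0.0032), the latter not called under median scaling (-0.29, adjusted p = 0.31). Rars, the arginine enzyme of the complex, fell in Lin28b loss by 0.32 ± 0.09 (adjusted p = 0.018), from 11.39, 11.24 and 11.32 to 10.93, 11.04 and 11.02, and in double loss (11.2, 11.03 and 10.89) by 0.28 ± 0.09 (adjusted p = 0.036). The fall in Lin28b loss was not called without wild type replicate 1 (-0.28, adjusted p = 0.052), without Lin28b loss replicate 1 (-0.28, adjusted p = 0.073) or under median scaling (-0.64, adjusted p = 0.068). The fall in double loss was lost under median scaling (-0.36, adjusted p = 0.32), in a fit of only the arrays compared (-0.27, adjusted p = 0.093) and when wild type replicate 1 (-0.24, adjusted p = 0.092) or 3 (-0.27, adjusted p = 0.081), double loss replicate 2 (-0.27, adjusted p = 0.092) or 3 (-0.2, adjusted p = 0.15), or Lin28b loss replicate 2 (-0.27, adjusted p = 0.052) was left out.

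Qars, the glutamine enzyme of the complex, was 11.5, 11.6 and 11.5 in wild type and 11.4, 11.28 and 11.22 in Lin28a loss, a fall of 0.24 ± 0.08 (adjusted p = 0.035). That call ended without wild type or Lin28a loss replicate 2 or 3, and without replicate 2 of either group on chip 2, with differences from -0.2 to -0.25 and adjusted p from 0.052 to 0.12. In a fit of only the arrays compared it was -0.24 (adjusted p = 0.13). Qars was above background on all 3 arrays only in Lin28a loss, through which it entered the fit, and on 2 of 3 in each other group. Qars also fell in double loss against Lin28b loss, by 0.23 ± 0.08 (adjusted p = 0.038), but the difference was 0.02 under median scaling (adjusted p = 0.96), so its direction is not settled. That call was also lost when any one array on chip 2, the third of wild type or the second of Lin28a loss was left out (-0.21 to -0.25, adjusted p from 0.051 to 0.11). Dars, the aspartate enzyme of the complex, ranged only from 11.22 to 11.74 over the 12 arrays and missed detection on 11 of them. Its unfiltered difference was -0.1 ± 0.1 in Lin28b loss (adjusted p = 0.63).

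Of the 8 enzymes of the multisynthetase complex, 5 were tested (Eprs, Kars, Mars, Qars and Rars). In Lin28a loss 0 rose and 1 fell (median 0.02), in Lin28b loss 0 rose and 3 fell (median -0.32), in double loss against wild type 0 rose and 2 fell (median -0.28), and in double loss against Lin28b loss 1 rose and 2 fell (median 0.04). The shares called were 20%, 60%, 40% and 60%, against 36.7%, 36.1%, 37.1% and 36.6% of all genes. The scaffold proteins Aimp1 and Aimp2 passed in none of these. The third, Eef1e1, was 11.01, 11.11 and 10.92 in Lin28b loss and 11.39, 11.32 and 11.39 in double loss, a rise of 0.35 ± 0.1 (adjusted p = 0.012). By catalytic fold, 4 of 12 tested class I and 11 of 14 class II synthetases changed in Lin28b loss, class II with 4 rises and 7 falls. These are 33.3% and 78.6%, against 36.1% of all genes, and the difference between the classes was not tested.

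Among the mitochondrial synthetases the widest differences belonged to Lars2 and Aars2, with Lin28b loss at the extreme of both and in opposite directions. Of 15, 10 were tested. In Lin28a loss 3 rose and 0 fell (median 0.05), in Lin28b loss 3 rose and 3 fell (median 0.01), in double loss against wild type 1 rose and 1 fell (median -0.05), and in double loss against Lin28b loss 1 rose and 2 fell (median 0.07). The shares called were 30%, 60%, 20% and 30%, against 36.7%, 36.1%, 37.1% and 36.6% of all genes.

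Lars2, the mitochondrial leucine enzyme, was 7.94, 7.84 and 7.86 in wild type, 8.71, 8.71 and 8.93 in Lin28a loss, 5.02, 4.65 and 5.03 in Lin28b loss, and 7.86, 7.82 and 7.83 in double loss. It was above background on all 9 arrays of the other groups and on 0 of 3 in Lin28b loss, where the raw signals were 55.6, 49.4 and 59.7 against 174.6 to 756.4 elsewhere. Since Lin28b loss was not well above background, the fold is a bound: Lars2 was at least 7.73-fold lower in Lin28b loss than in wild type (adjusted p = 1.14e-09). It was at least 7.5-fold higher in double loss than in Lin28b loss on the same chip (adjusted p = 1.37e-09). The bounds take, per array, the higher of the lowest signal among detected genes and the gene's own. In Lin28a loss Lars2 rose by 0.9 ± 0.11 (1.87-fold, adjusted p = 4.35e-05). Double loss was not separated from wild type (-0.04 ± 0.11, adjusted p = 0.79). Lars2 is read by 1 probe, so these values rest on 1 sequence of the transcript.

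Aars2, the mitochondrial alanine enzyme, was 5.55, 5.61 and 5.71 in wild type, 6.18, 6.3 and 6.14 in Lin28a loss, 6.98, 6.91 and 7.01 in Lin28b loss, and 5.44, 5.71 and 5.93 in double loss. Both single losses were above wild type with no overlap, while double loss overlapped wild type. It rose by 0.59 ± 0.11 in Lin28a loss (1.5-fold, adjusted p = 0.0016) and by 1.35 ± 0.11 in Lin28b loss (2.54-fold, adjusted p = 2.13e-06), and fell from Lin28b loss to double loss by 1.28 ± 0.11 (adjusted p = 3.72e-06). Aars2 was near background, and above it on 2 of 3 arrays in wild type and in double loss. Its raw signals in Lin28a loss (121.4, 111.7 and 142.6) overlapped those in wild type (114.6, 82.7 and 94.6). Those in Lin28b loss (129.3, 131.1 and 148.7) did not. Cars2, the mitochondrial cysteine enzyme, had the same order with smaller steps: 8.93, 9.01 and 9.08 in wild type, 9.37, 9.42 and 9.3 in Lin28a loss, 9.45, 9.47 and 9.61 in Lin28b loss, and 9.12, 9.28 and 9.19 in double loss. It rose by 0.36 ± 0.09 in Lin28a loss (adjusted p = 0.0062) and by 0.5 ± 0.09 in Lin28b loss (adjusted p = 6.30e-04), and was lower by 0.32 ± 0.09 in double loss than in Lin28b loss (adjusted p = 0.013). Under median scaling the last 2 were not called, at 0.22 (adjusted p = 0.46) and -0.17 (adjusted p = 0.63), nor was the last without Lin28b loss replicate 3 (-0.26, adjusted p = 0.06). A further, dimmer probe with the same Entrez identifier (2310051N18Rik), which was not tested, was 8.47, 8.73 and 8.75 in wild type, 9.21, 9.2 and 9.21 in Lin28a loss, 9.52, 9.3 and 9.23 in Lin28b loss, and 7.82, 7.83 and 7.76 in double loss. Both probes were above wild type in each single loss, but they disagreed in double loss, where the dimmer one was below every other array. Other Cars2 entries, also not tested, were near background. For 2410044A07Rik, Lin28a loss (5.58, 5.77 and 5.51) was above wild type (5.16, 5.41 and 5.17), but Lin28b loss (5.46, 5.23 and 5.22) overlapped wild type. D530030H10Rik stayed between 4.6 and 4.84 on all arrays.

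Fars2, the mitochondrial phenylalanine enzyme, was 10.45, 10.64 and 10.62 in wild type, 10.61, 10.56 and 10.53 in Lin28a loss, 9.85, 9.94 and 9.75 in Lin28b loss, and 9.91, 10.2 and 10.14 in double loss. It fell by 0.72 ± 0.1 in Lin28b loss (adjusted p = 1.13e-04) and by 0.49 ± 0.1 in double loss (adjusted p = 0.002), and both of those groups were on chip 2. Sars2, the mitochondrial serine enzyme, was 6.59, 7.19 and 7.07 in wild type, 6.97, 7.25 and 6.96 in Lin28a loss, 7.28, 7.41 and 7.48 in Lin28b loss, and 7.38, 7.55 and 7.47 in double loss. It rose by 0.44 ± 0.14 (adjusted p = 0.029) and by 0.52 ± 0.14 (adjusted p = 0.013) in the groups on chip 2, with wild type replicate 1 the lowest array. Neither rise was called under median scaling (0.22, adjusted p = 0.41, and 0.34, adjusted p = 0.22). The rise in Lin28b loss was also lost without wild type replicate 1 (0.26, adjusted p = 0.1), Lin28b loss replicate 2 (0.43, adjusted p = 0.077) or 3 (0.4, adjusted p = 0.098) or the 3 brightest arrays (0.26, adjusted p = 0.05), and with no detection filter (0.44, adjusted p = 0.073). Tars2 fell in Lin28b loss by 0.27 ± 0.1 (adjusted p = 0.048), from 8.91, 8.81 and 8.88 to 8.52, 8.55 and 8.73, a call lost when any one of 9 arrays was left out (-0.23 to -0.29, adjusted p from 0.052 to 0.15), under median scaling (-0.53, adjusted p = 0.1), with no detection filter (-0.27, adjusted p = 0.052) and with the replicate number as a block (-0.27, adjusted p = 0.066).

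Ears2 (9.39 to 9.74 over all arrays), Iars2 (9.91 to 10.34), Mars2 (7.83 to 9.06) and Pars2 (7.34 to 7.59), for glutamate, isoleucine, methionine and proline, did not pass in any comparison. Rars2, the mitochondrial arginine enzyme, was bright without passing detection on any array: 9.93, 9.96 and 9.89 in wild type, 9.98, 10.02 and 10.09 in Lin28a loss, 9.69, 9.61 and 9.58 in Lin28b loss, and 9.43, 9.54 and 9.41 in double loss. Without the filter Rars2 was -0.3 ± 0.05 in Lin28b loss (adjusted p = 0.0021) and -0.46 ± 0.05 in double loss (adjusted p = 1.14e-04). Wars2 passed detection on 1 array, in Lin28a loss, and was 4.84, 4.69 and 4.81 in wild type and 5.79, 5.59 and 5.58 in Lin28b loss, both not above background, so no difference is given. Hars2 (4.47 to 4.84), Nars2 (5.08 to 5.54) and Yars2 (4.37 to 4.48) were above background on no array, so differences among them were not detectable. Vars2, the mitochondrial valine enzyme, is outside the 35 and was also read: it rose by 0.55 ± 0.09 in Lin28a loss (9.35, 9.53 and 9.51 to 10.05, 10.06 and 9.94, adjusted p = 4.58e-04).

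**Figure D3:**
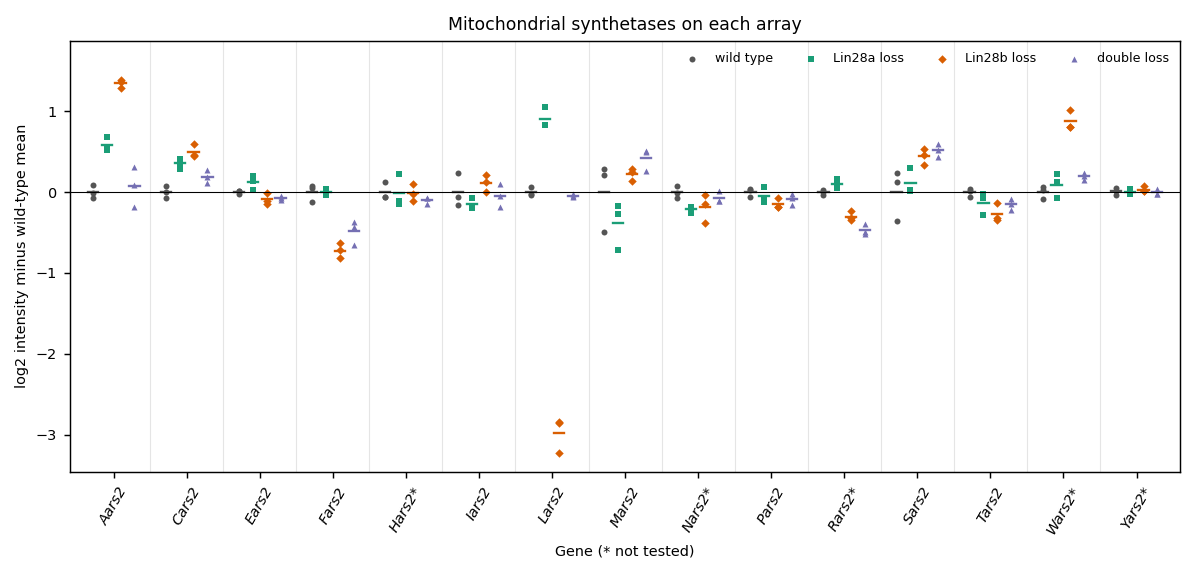
Log2 intensity of the 15 mitochondrial synthetases on each array, minus the mean of the wild-type arrays (y axis), with dashes for group means; asterisks mark genes not tested. Lars2 falls to background in the 3 Lin28b-loss arrays and is highest in Lin28a loss, while Aars2 is highest in Lin28b loss.

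The effect of Lin28a loss was then compared between cells with and without Lin28b loss. The interaction takes double loss minus Lin28b loss, less Lin28a loss minus wild type, and an additive chip effect cancels in it. It passed for 5 of the 27 synthetases (2 above and 3 below 0), against 37.8% of all genes (17.5% above and 20.3% below). Those above 0 were Lars2 (adjusted p = 9.93e-07), for which only a bound of at least 2.0 can be given since its Lin28b-loss arrays were at background, and Mars (0.52 ± 0.13, adjusted p = 0.0088). Those below 0 were Aars2 (-1.86 ± 0.16, adjusted p = 3.10e-06), Farsa (-1.73 ± 0.16, adjusted p = 4.51e-06) and Cars2 (-0.67 ± 0.12, adjusted p = 9.50e-04). Mars (0.7, adjusted p = 0.21) and Cars2 (-0.49, adjusted p = 0.27) were not called under median scaling. Across both chips together, with chip as a block, 8 of the 27 changed with Lin28a loss (5 rose, 3 fell), against 22.1% of all genes (10.6% rose and 11.5% fell). The rises were Lars2 (at least 1.91, with the same Lin28b-loss arrays at background), Tars (0.5 ± 0.09), Aars (0.34 ± 0.08), Mars (0.33 ± 0.1) and Sars (0.32 ± 0.09). The falls were Farsa (-0.95 ± 0.26), Kars (-0.32 ± 0.1) and Qars (-0.23 ± 0.06). Farsa, Mars and Kars lost the call with 1 array left out, Farsa without Lin28b loss replicate 3 (-0.87, adjusted p = 0.051), Mars without any of 8 arrays (0.28 to 0.34, adjusted p from 0.055 to 0.083) and Kars without any of 9 (-0.27 to -0.33, adjusted p from 0.055 to 0.083). With no detection filter Farsa (adjusted p = 0.065), Mars (adjusted p = 0.064) and Kars (adjusted p = 0.057) lost it too. Under median scaling of the arrays 1 gene, Lars2, rose and 0 fell.

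Genome position was examined for the synthetases that moved most. Aars, Farsa, Kars and Cars2 are on chromosome 8, where the 494 tested genes had a median log2 fold change of 0.24 for Lin28a loss, 0.25 for Lin28b loss, -0.12 for double loss and -0.59 for the interaction, against -0.04, -0.02, -0.01 and 0.03 for other chromosomes. The part of this chromosome-wide difference in the values of the 4 genes was not tested. Of 20 tested neighbours of Farsa, 10 on each side, 5 rose and 1 fell in Lin28b loss and 0 changed at least 2-fold, so the 3.17-fold rise of Farsa was larger than that of any of them. Of 13 tested neighbours of Lars2 on chromosome 9, 1 rose, 4 fell and 0 changed at least 2-fold. Of 20 around Aars2 on chromosome 17, 8 rose, 2 fell and 4 changed at least 2-fold, Ubd (3.26 ± 0.14), Enpp5 (2.42 ± 0.13), 1600014C23Rik (1.7 ± 0.21) and Tmem63b (1.26 ± 0.11), all upward and named after their values were seen. Beside these counts of neighbours, 18.9% of all tested genes rose and 17.2% fell in Lin28b loss. No all-gene share is given for changes of at least 2-fold.

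**Figure D4:**
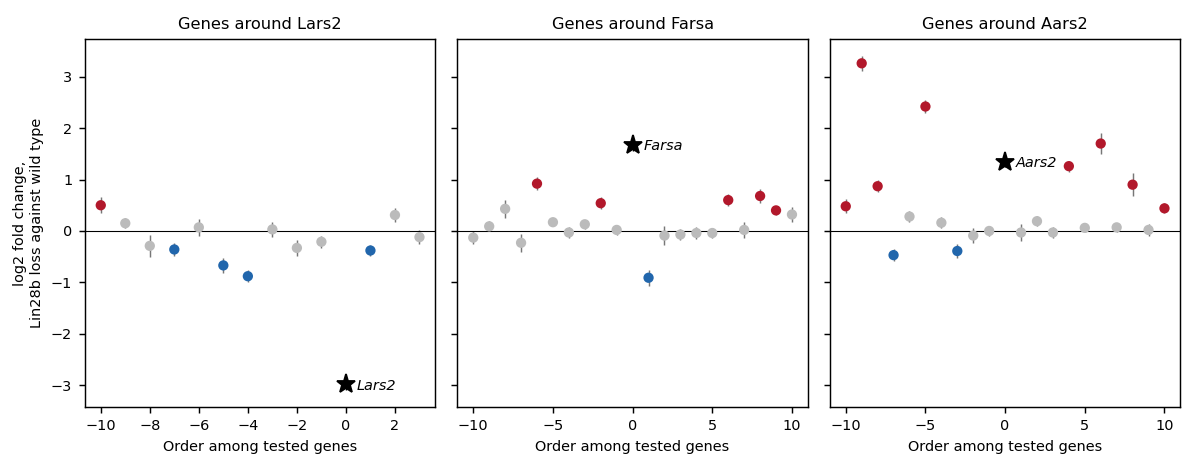
Log2 fold change in Lin28b loss against wild type (y axis, bars 1 SE) of tested genes in chromosomal order (x axis, gene order and not distance) around Lars2, Farsa and Aars2, which are drawn as stars; red points rose, blue points fell and grey points did not pass. Lars2 and Farsa lie beyond all their neighbours, and Aars2 lies among 4 neighbours that rose at least 2-fold.

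The genes that sense uncharged tRNA and the ATF4 targets outside the synthetases were listed separately. Eif2ak4, which encodes GCN2, was above background on 0 of 12 arrays. Atf4 mRNA was 11.24, 11.44 and 11.33 in wild type, 11.88, 12.06 and 11.99 in Lin28a loss, 10.56, 10.54 and 10.32 in Lin28b loss, and 11.86, 11.92 and 11.96 in double loss. It was high in Lin28a loss and double loss and low in Lin28b loss, with no overlap among wild type and these levels. Atf4 rose by 0.64 ± 0.09 in Lin28a loss (adjusted p = 2.04e-04), fell by 0.86 ± 0.09 in Lin28b loss (adjusted p = 1.96e-05), rose by 0.58 ± 0.09 in double loss (adjusted p = 4.22e-04) and was 2.71-fold higher in double loss than in Lin28b loss (adjusted p = 2.78e-07).

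Of 22 tested genes of the ATF4 amino acid response, 16 rose and 0 fell in Lin28a loss (median 0.70). In Lin28b loss 2 rose and 11 fell (median -0.39), and in double loss 3 rose and 11 fell (median -0.40). In double loss against Lin28b loss 4 rose and 4 fell (median 0.12). Rises made up 72.7% of the list in Lin28a loss (18.3% of all genes), and falls 50% in each of Lin28b loss (17.2%) and double loss (19.1%), while 36.4% changed in double loss against Lin28b loss (36.6%). Atf3 and Slc3a2 were above background on all 3 arrays only in Lin28a loss, where they are highest, and entered the fit through it. Among the other 20, 14 rose and 0 fell in Lin28a loss (median 0.68), and 11 fell in each of Lin28b loss (median -0.53) and double loss (median -0.42). In Lin28a loss the 4 largest rises were Nupr1, a stress-response chromatin protein (1.49 ± 0.16), Chac1, a glutathione-degrading enzyme (1.28 ± 0.17), Ddit3, the transcription factor CHOP (1.23 ± 0.31), and Gpt2, a mitochondrial alanine aminotransferase (1.16 ± 0.09). In Lin28b loss the 4 largest falls were Psat1 of serine synthesis (-1.48 ± 0.26), the neutral amino acid transporter Slc1a4 (-1.24 ± 0.27), Chac1 (-1.19 ± 0.17) and Nupr1 (-1.12 ± 0.16). In double loss they were Chac1 (-1.83 ± 0.17), the mTORC1 inhibitor Ddit4 (-1.63 ± 0.17), Ddit3 (-1.44 ± 0.31) and Slc1a4 (-1.13 ± 0.27). Double loss thus had high Atf4 mRNA together with lower levels of these 4 genes. Chac1 showed the steps on single arrays: 10.22, 10.1 and 10.07 in wild type, 11.18, 11.47 and 11.58 in Lin28a loss, 8.97, 9.31 and 8.55 in Lin28b loss, and 8.51, 8.17 and 8.24 in double loss. The synthetases in double loss were closer to wild type than this list was (ATF4-responsive median -0.12, list median -0.40), a difference that was not tested. In the list's promoters TGATGNAA was present in 9 of 26 (34.6%).

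**Figure D5:**
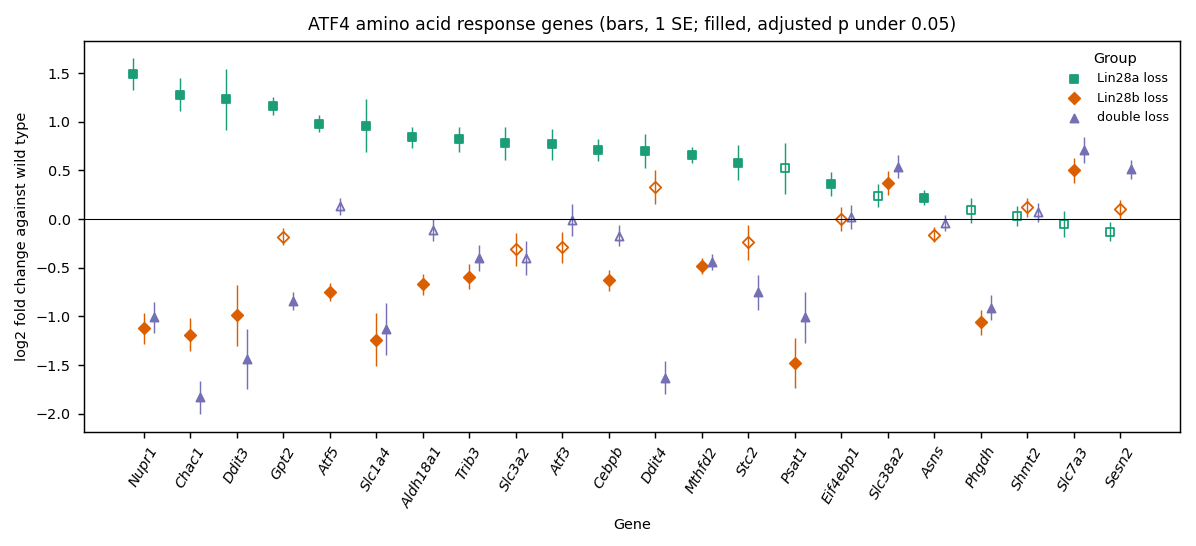
Log2 fold change against wild type (y axis, bars 1 SE) of the 22 tested ATF4 amino acid response genes in Lin28a loss (squares), Lin28b loss (diamonds) and double loss (triangles), ordered by the change in Lin28a loss; filled symbols passed. In Lin28a loss 16 rose, and in each of the other groups 11 fell.

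Of 9 tested genes of uncharged tRNA sensing and eIF2, 4 rose and 3 fell in Lin28a loss, 2 rose and 2 fell in Lin28b loss, 3 rose and 1 fell in double loss, and 2 rose and 0 fell in double loss against Lin28b loss. The shares called were 77.8%, 44.4%, 44.4% and 22.2%, against 36.7%, 36.1%, 37.1% and 36.6% of all genes. Impact, an inhibitor of GCN2 activation, rose in Lin28a loss (0.52 ± 0.11) and in Lin28b loss (0.47 ± 0.11). Ppp1r15a, which directs dephosphorylation of eIF2, fell in Lin28a loss (-0.59 ± 0.09) and rose in Lin28b loss (0.72 ± 0.09) and double loss (0.57 ± 0.09), opposite in sign to Atf4 in the single losses. Eif2b2, a subunit of the exchange factor of eIF2, fell in Lin28a loss (-0.59 ± 0.12). Eif2b3 fell in Lin28b loss (-0.28 ± 0.09) and double loss (-0.38 ± 0.09), and Eif2b4 rose in double loss (0.28 ± 0.08).

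Of 16 tested synthetase partners and charging factors, 1 rose and 0 fell in Lin28a loss, 0 rose and 2 fell in Lin28b loss, 2 rose and 3 fell in double loss, and 3 rose and 1 fell in double loss against Lin28b loss. At 6.25%, 12.5%, 31.2% and 25%, the shares called were below the 36.7%, 36.1%, 37.1% and 36.6% of all genes. Dtd1, which removes D-amino acids from tRNA, fell in Lin28b loss (-1.12 ± 0.14) and double loss (-0.97 ± 0.14), with values of 8.45, 8.04 and 7.86 in wild type, 6.93, 7.11 and 6.94 in Lin28b loss, and 7.21, 7.08 and 7.16 in double loss. Ppa2, the mitochondrial pyrophosphatase, fell in Lin28b loss (-0.41 ± 0.11). Sepsecs, which makes selenocysteine on its tRNA, rose in double loss (0.66 ± 0.13), as did Yrdc of tRNA threonylcarbamoylation (0.32 ± 0.11), while Qrsl1 of the mitochondrial glutaminyl-tRNA amidotransferase fell (-0.34 ± 0.11).

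Of 16 tested genes of tRNA production, 1 rose and 4 fell in Lin28a loss, 2 rose and 3 fell in Lin28b loss, 3 rose and 1 fell in double loss, and 5 rose and 0 fell in double loss against Lin28b loss. The shares called, 31.2%, 31.2%, 25% and 31.2%, were below those of all genes (36.7%, 36.1%, 37.1% and 36.6%). Nsun2, a tRNA cytosine methyltransferase, fell by 1.6 ± 0.16 in Lin28a loss (7.56, 8.07 and 8.2 in wild type, 6.11, 6.29 and 6.61 in Lin28a loss, adjusted p = 1.02e-05) and rose by 0.79 ± 0.16 in Lin28b loss (8.73, 8.7 and 8.76, adjusted p = 0.0026). Maf1, a repressor of RNA polymerase III, fell in Lin28a loss (-0.67 ± 0.16), and the polymerase subunit Polr3g fell in Lin28b loss (-0.49 ± 0.1) and double loss (-0.65 ± 0.1). Of the 5 cytosolic elongation factors, which bring charged tRNA to the ribosome or move it there, 0 changed in limma in any of these 4 comparisons, with log2 fold changes from -0.35 to 0.24 and 1 gene higher at an unadjusted p under 0.05 in each of Lin28a loss and Lin28b loss. Of 10 tested mitochondrial translation factors, 1 rose and 1 fell in Lin28a loss, 3 rose and 2 fell in Lin28b loss, 1 rose and 2 fell in double loss, and 0 rose and 2 fell in double loss against Lin28b loss, shares called of 20%, 50%, 30% and 20% against 36.7%, 36.1%, 37.1% and 36.6% of all genes. Mtif2, the mitochondrial initiation factor, rose in Lin28b loss (0.78 ± 0.11; 8.93, 8.76 and 8.97 to 9.58, 9.77 and 9.66) and Tufm, the factor that carries charged tRNA to the mitochondrial ribosome, rose there by 0.41 ± 0.08 and fell in Lin28a loss by 0.29 ± 0.08.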

How the data were processed

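RNA of 12 samples was hybridised to Illumina MouseWG-6 BeadChips. The deposited gene-level table holds mean bead intensity on a linear scale, not background subtracted and not normalized, with a detection p-value per gene and array set by GenomeStudio (GSGX version 1.9.0), per the file headers. Per the same file headers it also gives bead numbers (24 to 65 per synthetase) and bead standard errors (1.81% to 7.94% of signal), and 16 of the 35 synthetases are read by 1 probe. The design had assumed probe-level values. A further 48 columns of sample values went unused, 12 of which carry only numbers for names.

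Background was estimated from the detection p-values of 21873 single-probe genes, which came in steps of 936 negative control types. Signals were corrected with normexp in limma 3.58.1 (R 4.3.3), raised by an offset of 16, put on a log2 scale and quantile normalized. Genes whose detection p was below 0.01 on every array of a group, in any group, were tested (the brightest entry where several named 1 gene) with lmFit and eBayes on all 12 arrays, with Benjamini-Hochberg adjustment over 9920 genes and a threshold of 0.05. The fit was tested on simulated data. Of 30854 genes, Entrez identifiers named 18045, symbols 2073 and synonyms 2663 in a RefSeq table (GRCm38.p6), and 8073 kept the file's name. The number of arrays limits precision.

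The synthetases and all lists were chosen with earlier results of these data known. By the rule set for naming, statistics go to up to 8 synthetases per comparison with the largest changes among those that passed and to any not above background in a whole group. Every other synthetase is accounted for, with statistics where it passed. The rule also covers up to 4 genes per other list, and Atf4, Eif2ak4 and Vars2. A further gene is not reported here. Lists of mesoderm and neuroectoderm markers were read too: 1 of 4 neuroectoderm markers was above background in every group, and 1 of 5 mesoderm markers in wild type and 0 in the others. Replicate numbers did not pair the samples: same-numbered arrays of different groups had deviations from their group means that correlated from -0.573 to 0.687. Figures were drawn with matplotlib 3.10.9 (Python 3.11.15).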

Additional observations from a re-analysis of the deposited data

Results flagged for a closer look

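The effect of Lin28a loss differed between cells with and without Lin28b loss for 5 of 27 synthetases, by limma's test of the interaction over all tested genes. That is 18.5%, below the 37.8% of all genes that passed. For Lars2 the fitted difference was 2.03 on the log2 scale (adjusted p = 9.93e-07), but its Lin28b-loss arrays were at background, so the difference is at least 2.0, from 0.9 on chip 1 and at least 2.91 on chip 2. For Aars2 it was -1.86 ± 0.16 (adjusted p = 3.10e-06), with 0.59 for Lin28a loss against wild type and -1.28 for double loss against Lin28b loss. Aars2 was above background on 2 of 3 arrays in wild type and in double loss. For Farsa it was -1.73 ± 0.16 (adjusted p = 4.51e-06), from -0.08 and -1.81. For Cars2 it was -0.67 ± 0.12 (adjusted p = 9.50e-04), from 0.36 and -0.32, and under median scaling -0.49 (adjusted p = 0.27). For Mars it was 0.52 ± 0.13 (adjusted p = 0.0088), from 0.07 and 0.59, and under median scaling 0.7 (adjusted p = 0.21). These 2 calls were thus lost under that scaling, and the other 3 were kept. Each effect lies within 1 chip. Farsa and Cars2 are on chromosome 8, whose tested genes had a median interaction of -0.59, against 0.03 on other chromosomes. The part of this chromosome-wide shift in their values was not tested.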

How the results depend on the processing

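Each of the 54 calls of tested synthetases was recomputed under the alternatives. Of the 1049 values, 920 kept their call, 128 lost it, 30 of these under median scaling, and 1 reversed: Qars in double loss against Lin28b loss was 0.02 under median scaling (adjusted p = 0.96). Counts of synthetases called were as follows. The share of all genes called under each setting is not given here. A change in these counts is thus not shown to be particular to the synthetases. In Lin28a loss (7) they were 2 under median scaling, 3 among genes above background on all 12 arrays, 12 with array weights, 4 in a fit of only the arrays compared and 12 without the 3 brightest arrays. In double loss against wild type (6) they were 3 under median scaling and 17 with array weights. In double loss against Lin28b loss (12) the count was 3 under median scaling and 7 without Lin28b loss replicate 3. In the interaction (5) they were 3 under median scaling, 8 with no detection filter, 3 above background on all arrays, 11 with array weights, 12 without the 3 brightest arrays and 9 without Lin28a loss replicate 3. With chip as a block (8) they were 1 under median scaling, 18 with array weights and 5 without Lin28b loss replicate 3. Rises of ATF4-responsive synthetases in Lin28a loss (3) numbered 0 under median scaling, 6 with array weights, 1 in a fit of only the arrays compared and 6 without the 3 brightest arrays. Leaving out 1 array at a time gave 6 to 9, 12 to 17, 4 to 8, 7 to 14, 5 to 9 and 5 to 11 calls in the order Lin28a loss, Lin28b loss, double loss, double loss against Lin28b loss, interaction and block. It gave 5 to 8 falls of ATF4-responsive synthetases in Lin28b loss (7), and 13 to 16 rises in Lin28a loss (16) and 10 to 12 falls in Lin28b loss (11) of the ATF4 response list. Median scaling moved the median of all genes to -0.23 for Lin28b loss and -0.14 for double loss, and the ATF4-responsive median to -0.68 and -0.20. The cause of these shifts was not tested.

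With the replicate number as a block the counts were 7, 15, 7, 12, 6 and 6 in the same order. The numbers do not pair the samples (median correlation of same-numbered deviations 0.11). The block ended the calls of Tars2 in Lin28b loss (-0.27, adjusted p = 0.066), of Yars in double loss (0.5, adjusted p = 0.055) and of Mars (0.33, adjusted p = 0.058) and Kars (-0.32, adjusted p = 0.05) with chip as a block, and none of the other 50. The authors' probe-level values were not run. Signal near background limits Hars, Hars2, Nars2, Wars2 and Yars2, Aars2 in wild type and double loss, and Lars2 in Lin28b loss.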
